A study of Mus musculus with 8 samples.

Results

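The Myb locus was examined in maps of chromatin contacts between regions that carry acetylation of histone H3 at lysine 27 (H3K27ac). The maps came from HPC-7 cells, a mouse hematopoietic progenitor line cultured with stem cell factor. As the study describes them, the HPC-7 cells had a stable transgene for either p30 or p42, the short and the full-length isoform of the transcription factor CEBPA, beside a very low endogenous level. The 4 groups were p30 untreated (p30 UT), p30 after 2 h of lipopolysaccharide at 100 ng/mL (p30 LPS), p42 untreated (p42 UT) and p42 after the same exposure (p42 LPS). HiChIP, which joins proximity ligation to immunoprecipitation of H3K27ac, was done in 2 replicates per group, 8 libraries in all, and the authors deposited 1 interaction list per group. The methods describe p30 and p42 lines with an ERT2 fusion, whose entry into the nucleus is controlled by 4-hydroxytamoxifen, and lines with a flag tag and no such fusion. As a general rule they state that fusion lines received 4-hydroxytamoxifen on the day before an experiment. Which of the lines served for HiChIP is not given in the sources used here. No cells without a transgene were compared. The groups name no more than the isoform and the treatment, so isoform and line cannot be told apart.

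Loops here are pairs of 5 kb bins listed by the caller, FitHiChIP, with more contacts than expected at a q-value under 0.01. Myb loops were taken by position. All loops with a bin that holds the canonical Myb start site were kept, and so were the other loops with both bins within 200 kb of that bin. Over the 4 lists these were 8 distinct loops of the start-site bin and 194 distinct loops in the window, of 214313 distinct loops in all. The p30 UT list held 37 window loops of 80489, the p30 LPS list 45 of 94609, the p42 UT list 154 of 158233 and the p42 LPS list 80 of 78591. The modelled contacts behind the lists were 17976716, 14503330, 18999991 and 15831583 in the same order, so the lists differed in length far more than in contacts. Start-site bins of blood progenitor genes carried the H3K27ac peak flag in all 4 lists for 9 of 9 genes. None of the 3 T cell, 3 liver and 3 neuron genes had a peak-flagged start-site bin in any list, although Apoa1 had 1 loop in p42 UT. The flag is known only for bins with a listed loop. Apart from Apoa1 none of these genes had such a loop, so for them the flag is unknown.

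Myb encodes a transcription factor that blood progenitors need for proliferation, and its level falls as the cells mature. Its expression is known to depend on enhancers spread over the interval between Myb and its upstream neighbor Hbs1l, where the factors GATA1, TAL1, LDB1 and RUNX1 bind in blood cells. H3K27ac marks active promoters and enhancers, and a HiChIP contact is counted only where an acetylated fragment was pulled down, so contacts depend on acetylation as well as on folding.

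In GENCODE on GRCm39, Myb lies on the minus strand at chr10:21000834-21036883, and its start site falls in the bin chr10:21035001-21040000. Higher coordinates are therefore upstream of Myb. Hbs1l, which encodes a translation factor of the GTPase family, lies upstream on the plus strand at chr10:21171863-21247476. Ahi1, which encodes a protein of the primary cilium, lies downstream on the plus strand at chr10:20828393-20956329. The start-site bin also holds the start sites of the long non-coding RNAs Gm67068 and Gm67071.

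The sequences below show the promoter at which the 8 loops end and the CEBP motif matches of the bins that matter most in the results. The Myb promoter, chr10:21036834-21037133 on the minus strand of GRCm39, is given from 250 bases before the start site to 50 bases from it on, with the first transcribed base in capitals.
Myb promoter: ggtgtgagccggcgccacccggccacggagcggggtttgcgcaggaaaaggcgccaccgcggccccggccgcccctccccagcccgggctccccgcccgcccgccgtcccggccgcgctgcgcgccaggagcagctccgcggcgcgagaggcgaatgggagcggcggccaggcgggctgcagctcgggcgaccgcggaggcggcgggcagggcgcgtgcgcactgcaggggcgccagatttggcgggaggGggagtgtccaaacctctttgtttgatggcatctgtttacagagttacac
It holds 75.0% G and C and 40 CG dinucleotides, against medians of 54.3% and 11 over the promoters of 21770 protein-coding transcripts. None of 7 motifs searched on both strands was found in it. The CEBP motif TTGCNNAA occurs in 10.7% of promoters of the same length and the CEBP-ATF motif TGATGNAA in 3.84%. The AP-1 motif was searched as TGANTCA and occurs in 7.14% of promoters. The GATA motif was searched as AGATAA and occurs in 10.6%. For ETS factors the letters AGGAAGT were used, found in 9.15% of promoters. For RUNX factors they were TGTGGTT, found in 5.03%. The last was a combined motif of an E-box and GATA, whose matches all hold a GATA match as well, found in 0.220% of promoters.

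The bin joined to the Myb start site in all 4 lists, chr10:21060001-21065000, held 2 CEBP and 2 CEBP-ATF matches. The stretches printed for CEBP lie at chr10:21061267-21061304 and chr10:21062896-21062933 on the minus strand, and those for CEBP-ATF at chr10:21061187-21061224 on the minus and chr10:21064615-21064652 on the plus strand, each with the match in capitals and 15 bases on either side.
CEBP match A, 25 kb upstream: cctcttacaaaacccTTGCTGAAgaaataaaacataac
CEBP match B, 25 kb upstream: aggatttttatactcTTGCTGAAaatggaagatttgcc
CEBP-ATF match A, 25 kb upstream: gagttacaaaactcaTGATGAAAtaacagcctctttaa
CEBP-ATF match B, 25 kb upstream: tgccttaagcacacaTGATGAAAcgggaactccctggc
The bin chr10:20930001-20935000 inside Ahi1, which takes part in the window loop with the smallest adjusted p between the isoforms, held 4 CEBP matches. Their stretches, printed in the same way, lie at chr10:20930752-20930789 on the plus strand and at chr10:20930784-20930821, chr10:20931742-20931779 and chr10:20934802-20934839 on the minus strand.
CEBP match A, 105 kb downstream: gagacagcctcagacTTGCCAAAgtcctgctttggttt
CEBP match B, 105 kb downstream: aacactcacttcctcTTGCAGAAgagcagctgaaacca
CEBP match C, 105 kb downstream: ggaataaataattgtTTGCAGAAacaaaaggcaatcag
CEBP match D, 105 kb downstream: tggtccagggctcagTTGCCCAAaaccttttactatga
Such matches are common in a window of 5 kb. A CEBP match occurred in 85.8% of all 64985 peak-flagged bins, with a mean of 2.08 per bin, and the 8 partner bins of Myb held 2.25 per bin. The peak-flagged bins of the window held 3.13 per bin on the Ahi1 side, 3.71 in the Myb body and 2.85 between Myb and Hbs1l. The other motifs lay above and below the mean of all peak-flagged bins. The AP-1 motif, with 1.53 per bin over all, had 1.78, 0.857 and 1.08 in these zones, and GATA, with 2.91, had 4.26, 2.43 and 4.23. In the 8 partner bins, ETS and RUNX each had 0.875 per bin, against 1.40 and 1.46 over all, and CEBP-ATF had 1.38 against 0.727. The combined E-box and GATA motif was in none of the 8 partner bins and in 5.59% of all peak-flagged bins.

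The contacts of the Myb start-site bin were described first, since they show which regions the promoter met. Its loops numbered 1 untreated and 4 after LPS with p30, and 7 untreated and 1 after LPS with p42. Of the 8 distinct partner bins, 5 lay upstream and 3 downstream. In lists cut to an equal size of 78591 loops with the smallest q-values, the start-site bin had 1, 3, 3 and 1 loops, so the excess in p42 UT over p30 LPS was not seen at equal list length. Among protein-coding genes with a start-site loop, the median number was 3 in p30 UT, p30 LPS and p42 LPS and 5 in p42 UT.

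The only start-site loop present in all 4 lists joined Myb to the bin 25 kb upstream, chr10:21060001-21065000, which holds exons of the long non-coding RNAs Gm40608 and Gm33619. It had 18 contacts untreated and 21 after LPS with p30, and 26 untreated and 17 after LPS with p42. The caller expected 5.82, 4.65, 6.29 and 4.74 contacts there, so the observed number was 3.10, 4.52, 4.13 and 3.59 times the expected one. These ratios are of the size of all loops at 25 kb, whose median was between 3.34 and 3.62 times the expected number. The contact was thus listed with either isoform, with and without LPS, at the caller's threshold, but its q-value was 0.00467 in p30 UT and 0.00141 in p42 LPS, so at q under 0.001 it was listed in p30 LPS and p42 UT alone.

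The next 2 bins upstream were joined to Myb less regularly. The bin 30 kb upstream, chr10:21065001-21070000, with the start site of Gm40608, had 13 contacts in p30 LPS and 23 in p42 UT, which were 3.92 and 5.13 times the expected number. Given the coverage of both bins, this pair would have stayed unlisted with up to 14 contacts in p30 UT and up to 12 in p42 LPS, if it was tested there. The p30 LPS value of 13 contacts thus lies within what p30 UT could have held unlisted. The 23 contacts of p42 UT lie above that number, and this difference was not tested. The bin 35 kb upstream, chr10:21070001-21075000, with an exon of Gm33728, had 12 contacts in p30 LPS, 4.07 times the expected number, and up to 13 in p30 UT, 12 in p42 UT and 11 in p42 LPS could have stayed unlisted. The loops at 25, 30 and 35 kb end in touching bins and may rest on 1 contact region, and merging touching partner bins left 2 partners in p30 LPS.

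Farther upstream the Myb start site met the Hbs1l gene. The bin 135 kb upstream, chr10:21170001-21175000, holds the Hbs1l start site and had 9 contacts with the Myb start site in p42 UT, 5.17 times the expected number. Up to 8 contacts in p30 UT and p42 LPS and up to 7 in p30 LPS could have stayed unlisted. The bin 175 kb upstream, chr10:21210001-21215000, with an exon of Hbs1l, had 9 contacts in p30 LPS and 9 in p42 UT, 7.0 and 6.48 times the expected number, with up to 7 possible in each of the other lists. At these distances 1 or 2 contacts decide whether a pair is listed, so a difference between the lists was not detectable at this depth.

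Downstream, 3 bins inside Ahi1 were joined to the Myb start site, all in p42 UT alone. The bin 170 kb downstream, chr10:20865001-20870000 with an Ahi1 exon, had 12 contacts, 7.21 times the expected number. Its neighbor 175 kb downstream, also with an Ahi1 exon, had 9 contacts, and the bin 100 kb downstream, in an Ahi1 intron, had 10. For the loop at 170 kb, up to 8 contacts in p30 UT, 7 in p30 LPS and 8 in p42 LPS could have stayed unlisted, if the pair was tested there. The 12 contacts of p42 UT lie above these limits, but the loop is described here because p42 UT listed it. These contacts are not scaled by depth, and the Ahi1 bin had 2.57 times the relative coverage in p42 UT of that in p30 UT. The difference was not tested. For the other two, up to 8 (175 kb) and 9 (100 kb) contacts could have stayed unlisted in p42 LPS, which is 1 below the p42 UT value in each case. In p30 LPS the limit was 7 for the loop at 175 kb, and the bin 100 kb downstream had no listed loop. In p30 UT neither of the 2 Ahi1 bins had a listed loop. Where a bin had none, no such limit could be computed.

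**Figure D1:**
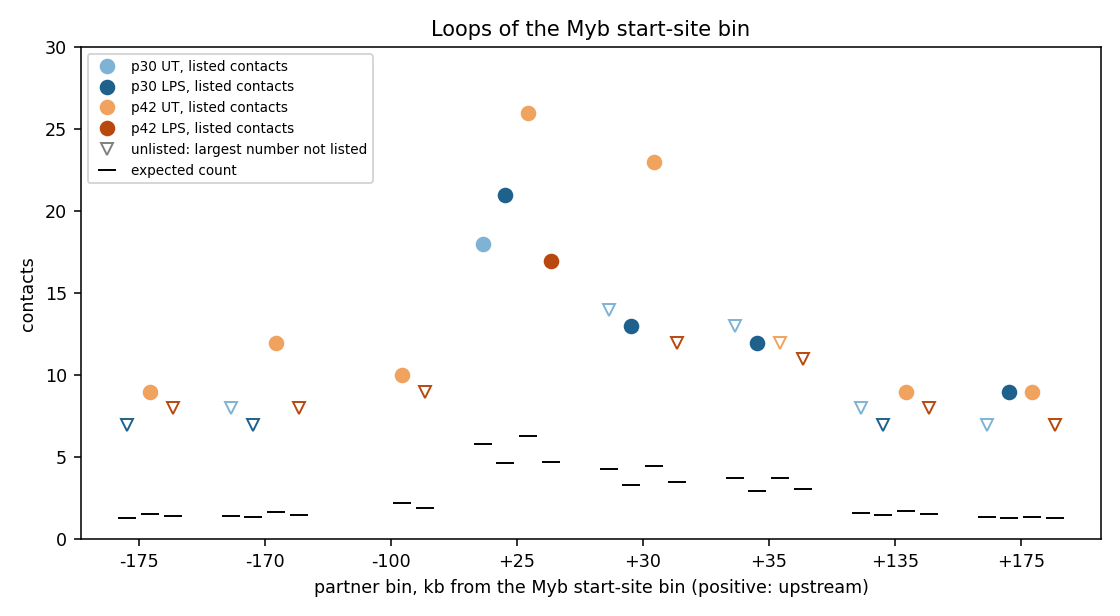
Contacts of the 8 loops of the Myb start-site bin (vertical axis, number of contacts) against the position of the partner bin (horizontal axis, kb from the Myb start-site bin, positive upstream). Filled circles are listed contacts, open triangles the largest number at which a pair would not have been listed, black dashes the expected count, and a list has no mark where 1 of the bins is absent from it; the bin 25 kb upstream is the only one with circles for all 4 lists, between 17 and 26 contacts.

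Contacts at the 25 kb loop were then compared between lists, by a two-sided exact binomial test against each list's share of the modelled contacts and with Benjamini-Hochberg adjustment over all genes. As there is 1 list per group and no replicate value, such a p compares the libraries and not the conditions, and intervals cover counting error only. Of the contacts of p42 UT and p30 UT together, p42 UT held 59.1% (95% Wilson interval 44.4 to 72.3) against 51.4% of the modelled contacts, and Myb was not called (exact test, adjusted p = 0.627). Over all genes the median share was 55.6%, and 22% of 7008 genes were called higher and 0.314% lower in p42 UT. After LPS, p42 held 44.7% (30.1 to 60.3) against 52.2% (exact test, adjusted p = 0.733), where 1.02% of 6088 genes were called higher and 13.5% lower. With 1 bin added on either side of the start site, the log2 ratio of p42 LPS over p30 LPS turned from -0.43 to 0.28 and was not called. With the null share of all shared loops, that of p42 UT over p30 UT fell from 0.45 to 0.17.

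The LPS change within each isoform was not called at Myb either. In p30, LPS held 53.8% (38.6 to 68.4) against 44.7% of the modelled contacts (exact test, adjusted p = 0.543), while 15.9% of 6284 genes were called higher after LPS and 0.191% lower. In p42, LPS held 39.5% (26.4 to 54.4) against 45.5% (exact test, adjusted p = 0.744), while 0.265% of 6782 genes were called higher and 16.7% lower. With 1 bin on either side the p42 log2 ratio turned from -0.35 to 0.06, and with the null share of all shared loops the LPS ratios were 0.27 in p30 and -0.14 in p42, none of them called. The log2 LPS change in p42 minus that in p30 was -0.88 at Myb, and a conditional exact test of this difference did not call it (adjusted p = 0.316). With the null share of all shared loops the difference was -0.32, and it was not called. That test called 36.8% of 5045 genes lower and 0.0198% higher in p42. With 17 to 26 contacts per list the intervals are wide, and a p that misses the threshold does not show that the lists were alike.

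The start-site bin itself had less coverage than most bins with a start site. Its coverage, the number of reads in the bin, was 1860 untreated and 1471 after LPS with p30, and 2620 untreated and 1497 after LPS with p42. Divided by the mean coverage of peak-flagged bins of the same list, this gave 0.773, 0.657, 0.900 and 0.772. Of all peak-flagged bins with a start site, 10.7%, 7.32%, 21.8% and 10.5% lay below it. The relative coverage was 1.16 times as high in p42 UT as in p30 UT and 1.18 times as high in p42 LPS as in p30 LPS, but scaling by the modelled contacts in place of the peak-flagged bins turned the latter direction, to a log2 difference of -0.10. That scale moved the median over all peak-flagged bins to 0.16 without LPS and to -0.33 with LPS.

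The bin 25 kb upstream had more coverage than the promoter. It had 4606 reads untreated and 4677 after LPS with p30, and 4952 untreated and 3051 after LPS with p42, or 1.91, 2.09, 1.70 and 1.57 times the mean peak-flagged bin. Its relative coverage was thus lower with p42 than with p30, by 0.17 on the log2 scale without LPS (33.0% of peak-flagged bins lay lower) and by 0.41 with LPS (7.55% lay lower). Scaled by modelled contacts, the untreated difference of this bin turned to 0.02, and that with LPS was -0.74. Between Myb and Hbs1l, all 8 peak-flagged bins listed in both UT lists were lower in p42 UT, with a median log2 difference of -0.29 and a range from -0.49 to -0.17, and with the scale of modelled contacts 1 of the 8 turned higher and the median was -0.10. After LPS, 4 of 8 such bins were lower in p42, with a median of -0.06, and with the scale of modelled contacts all 8 were lower, with a median of -0.39. Over all peak-flagged bins the medians were -0.03 and 0.00, with an SD of 0.34 and 0.31.

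The rest of the window was examined next, to describe how the lists differed in the interval upstream of Myb and elsewhere in the locus. The lists differed in the number of loops downstream of Myb, which is described here and was not tested. Loops with both bins on the Ahi1 side numbered 11 untreated and 13 after LPS with p30, and 74 untreated and 38 after LPS with p42, with 333, 373, 2732 and 1181 contacts. Loops between the Ahi1 side and the body of Myb numbered 3, 6, 32 and 15. By contrast, loops with both bins between Myb and Hbs1l numbered 11, 11, 9 and 10, with 287, 300, 244 and 295 contacts.

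**Figure D2:**
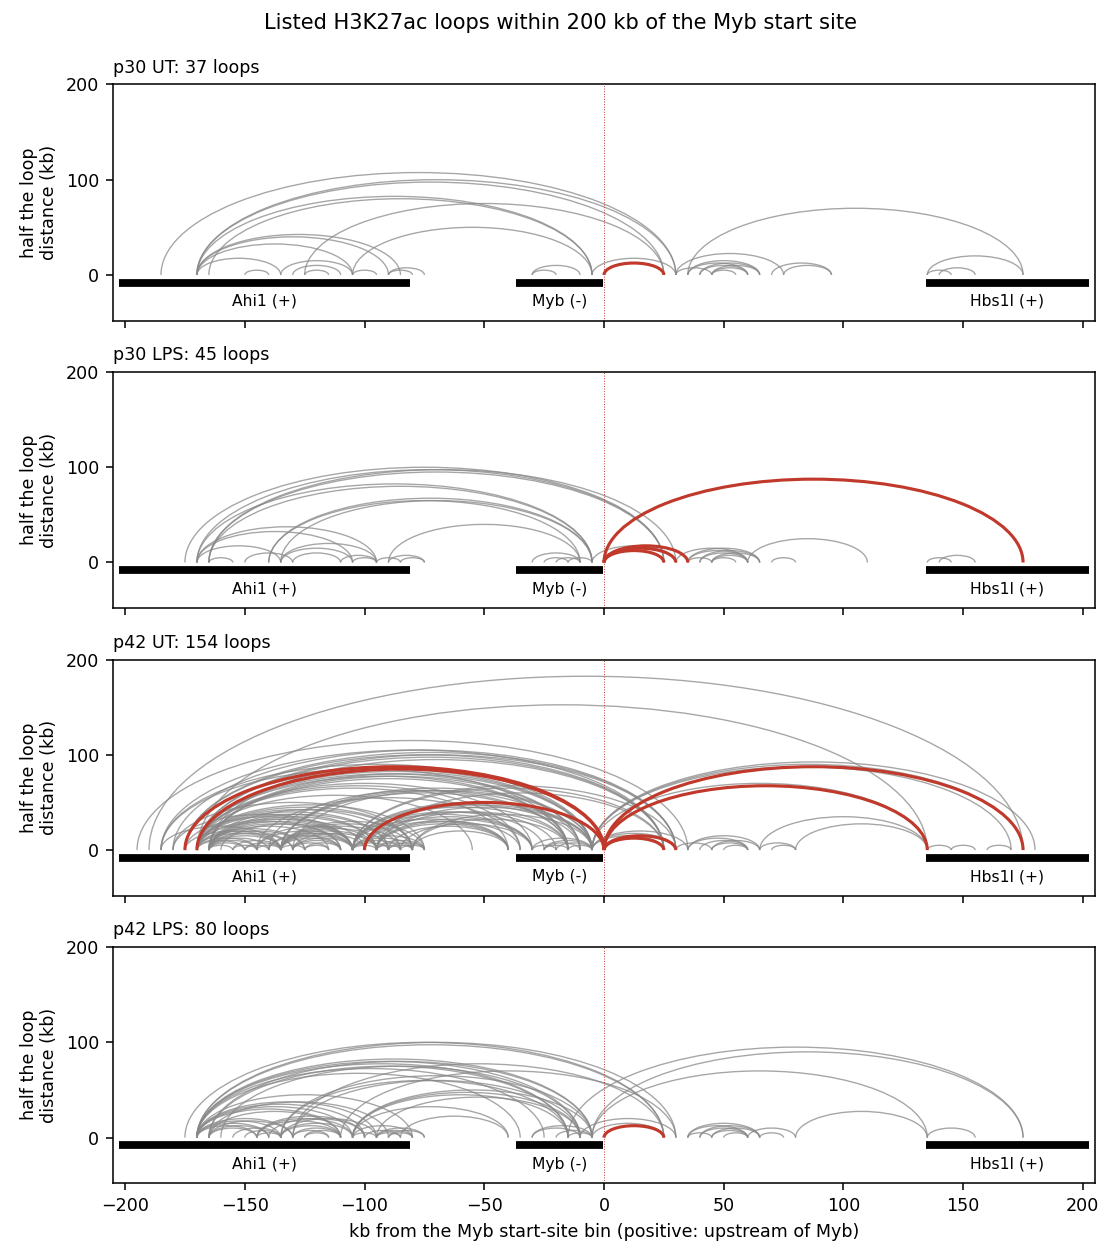
Loops listed within 200 kb of the Myb start site in each of the 4 lists, drawn as arcs between their bins (horizontal axis, kb from the Myb start-site bin, positive upstream; vertical axis, the loop distance divided by 2, in kb). Red arcs are the loops of the Myb start-site bin, grey arcs all others, and black bars the genes with their strand; arcs inside Ahi1 are dense in both p42 lists, while the arcs between Myb and Hbs1l are similar in number in all 4.

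The lists of equal size kept the order of p42 above p30 on the Ahi1 side. In them, loops on the Ahi1 side numbered 11, 10, 42 and 38, loops between the Ahi1 side and the Myb body 3, 4, 9 and 15, and loops between Myb and Hbs1l 11, 9, 4 and 10. Relative to the length of its list, the whole window held 4.60 loops per 10000 untreated and 4.76 after LPS with p30, and 9.73 untreated and 10.2 after LPS with p42. The p42 density was 2.12 times that of p30 without LPS and 2.14 times with LPS. Among the same windows around 9756 genes with at least 10 loops in every list, 98.1% and 98.7% had a lower ratio, which is a description, as windows of neighboring genes share loops. The LPS ratio of the Myb window was 1.03 in p30 and 1.05 in p42, against which 48.9% and 58.9% of windows were lower, values near the middle of the distribution.

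**Figure D3:**
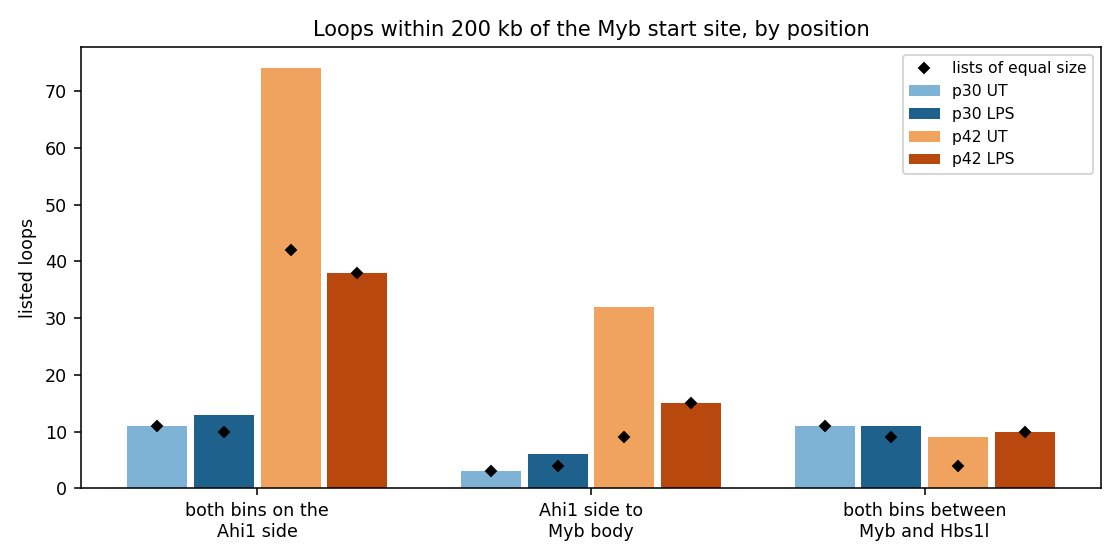
Number of listed loops (vertical axis) by the position of both bins (horizontal axis) in the 4 lists; bars are the lists as deposited and diamonds the lists of equal size. The bars of both p42 lists stand above those of p30 on the Ahi1 side, with 74 and 38 against 11 and 13 loops, but not between Myb and Hbs1l.

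Of the 194 window loops, 15 were in all 4 lists, 133 in p42 lists alone and 19 in p30 lists alone. These were 7.73%, 68.6% and 9.79% of the window loops, against 14.5%, 40.2% and 17.4% of all 214313 distinct loops. In lists of equal size, 76 of 128 window loops were in p42 lists alone and 20 in p30 lists alone, or 59.4% and 15.6%, against 27.3% and 29.0% of all 157557 loops. Both p42 lists as deposited shared 34 loops that neither p30 list held (17.5%, against 5.53% of all loops), while both p30 lists shared 2 that neither p42 list held (1.03%, against 1.58%). Of the 133 loops, 65 had both bins on the Ahi1 side. The bin chr10:20865001-20870000, 170 kb downstream of Myb, took part in 7 window loops untreated and 5 after LPS with p30, and in 23 and 16 with p42, and it was the bin with the most window loops in 3 of the 4 lists. This bin also met regions past the Myb promoter.

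A loop between that bin and the bin 25 kb upstream of Myb spanned 195 kb across the whole Myb gene and was listed in all 4 groups. It had 13 contacts untreated and 10 after LPS with p30, and 27 untreated and 13 after LPS with p42, which were 8.71, 6.95, 16 and 8.42 times the expected number. The p42 UT value was the highest, but the loop was not called between the UT lists (adjusted p = 0.360 over all loops, exact binomial test). In all, 27 distinct loops passed over the Myb start-site bin, 5 untreated and 5 after LPS with p30, and 20 untreated and 10 after LPS with p42, and this was the only one of them in all 4 lists. The bin next to the promoter inside Myb, chr10:21030001-21035000, with exons of Myb and of the antisense long non-coding RNA Gm26577, was joined to the same Ahi1 bin in all 4 lists with 12, 13, 17 and 12 contacts.

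Contacts of single loops were tested where both lists held the loop. Of 26 window loops in both UT lists, 4 were called higher in p42 UT and 0 lower, against 5.02% and 0.0677% of the 59069 loops tested (exact binomial test, Benjamini-Hochberg adjustment over all of them). All 4 had both bins on the Ahi1 side. The loop from the bin 105 kb to the bin 95 kb downstream had 77 contacts in p30 UT and 207 in p42 UT (p42 share 72.9%, interval 67.4 to 77.7, exact test, adjusted p = 1.68e-10). The loop from 170 to 105 kb downstream had 11 and 40 contacts (78.4%, 65.4 to 87.5, exact test, adjusted p = 0.00505), and those from 90 to 80 kb and from 170 to 135 kb had 55 and 107 and 15 and 41 contacts (adjusted p = 0.00807 and 0.0289). When the null share was taken from the expected counts, in which bin coverage is included, none of the 4 remained called, and with the share of all shared loops 1 window loop was called.

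The p30 LPS and p42 LPS lists shared 24 window loops, of which 0 were called in either direction, against 0.213% of 46110 loops called higher and 1.37% lower in p42 LPS. The smallest adjusted p was 0.0633, for the same loop from 105 to 95 kb downstream, which had 66 contacts with p30 and 118 with p42, and 3 of the 24 had an unadjusted p under 0.05. With the null share of all shared loops 1 window loop was called higher in p42 LPS, and over loops in all 4 lists also 1. For LPS against UT in p30, 0 of 21 shared window loops were called by the binomial test and 0 had an unadjusted p under 0.05, against 2.17% of 47004 loops called higher and 0.0234% lower. For LPS against UT in p42, 0 of 59 were called and 5 had an unadjusted p under 0.05, against 0.0384% of 59847 loops called higher and 1.43% lower, and over loops in all 4 lists 1 was called lower after LPS.

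The contacts summed over shared loops are given as a description. On the Ahi1 side, p42 UT held 67.2% (64.2 to 69.98) of 681 and 333 contacts against 51.4% of the modelled ones, and all 11 loops lay above that share. Between Myb and Hbs1l it held 45.7% (40.3 to 51.2) of 145 and 172 contacts, and 0 of 6 loops lay above. After LPS, p42 held 60.2% (56.4 to 64.0) on the Ahi1 side, with 9 of 9 loops above the 52.2% of modelled contacts, and 52.2% (47.2 to 57.1) between Myb and Hbs1l, with 4 of 7 above. Over all shared loops p42 held 56.3% without LPS and 49.1% with LPS.

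The LPS shares were summed in the same way. In p30, the LPS list held 47.6% (42.4 to 52.8) on the Ahi1 side and 48.0% (43.1 to 52.9) between Myb and Hbs1l, against 44.7% of the modelled contacts. In p42, it held 40.6% (38.8 to 42.6) on the Ahi1 side and 54.1% (48.6 to 59.6) between Myb and Hbs1l, against 45.5%. Over all shared loops the LPS list held 49.2% in p30, above both zones of the window, and 41.9% in p42, between the values of the zones. Of the shared p42 loops, 9 of 31 on the Ahi1 side and 6 of 6 between Myb and Hbs1l lay above. No single loop of these was called.

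**Figure D4:**
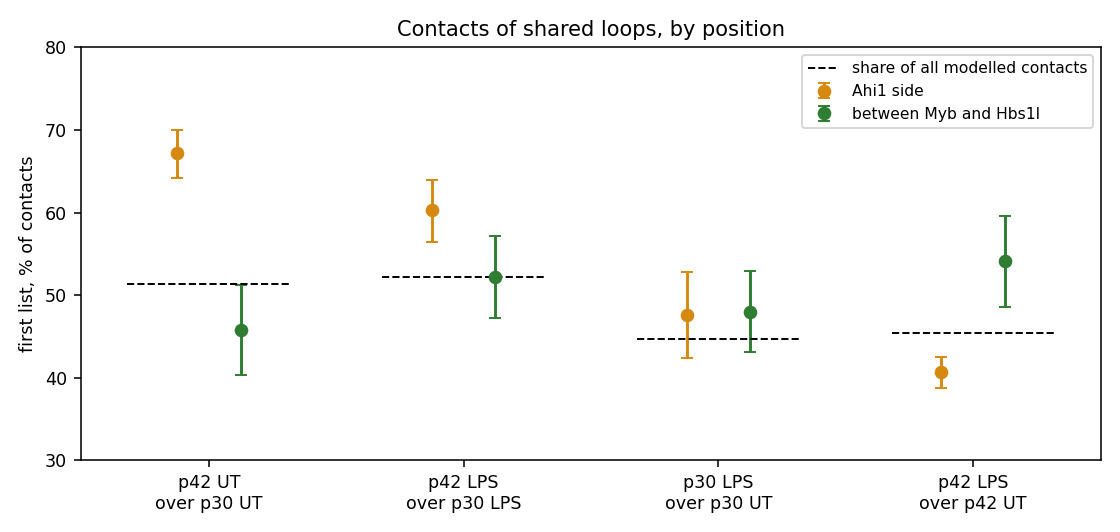
Share of the contacts of shared window loops held by the first list of each comparison (vertical axis, percent, drawn from 30 to 80), for loops with both bins on the Ahi1 side and for loops with both bins between Myb and Hbs1l. Bars are 95% Wilson intervals for counting error and dashed lines the first list's share of all modelled contacts; the Ahi1-side share of p42 UT over p30 UT is 67.2%, while the share between Myb and Hbs1l is 45.7%.

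Coverage of the bins is given beside these contacts. All 17 peak-flagged bins on the Ahi1 side that both UT lists held had a higher relative coverage in p42 UT, by a median of 0.84 on the log2 scale (range 0.13 to 1.36), and all 14 such bins did so after LPS, by a median of 0.81 (0.50 to 1.16). In the body of Myb, the medians were 0.59 over 4 bins and 0.80 over 6 bins. With the scale of modelled contacts, the medians after LPS were 0.47 both on the Ahi1 side and in the Myb body, and all of these bins were still higher in p42. The bin 170 kb downstream had 2354 reads untreated and 2342 after LPS with p30, and 7317 untreated and 3890 after LPS with p42, and its relative coverage was 2.57 times as high in p42 UT as in p30 UT, with 99.8% of peak-flagged bins lower. Without LPS, the difference was smaller in the start-site bin, at 0.22, and under 0 in all 8 bins between it and the Hbs1l start site.

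The borders of this stretch were followed beyond the window. Between 200 and 500 kb downstream of Myb, 14 peak-flagged bins in both UT lists had a median log2 difference of 0.16 (range -0.34 to 0.66), and 4 bins in both LPS lists one of 0.44 (0.14 to 0.60). The bin with the Ahi1 start site, 210 kb downstream, stood at 0.66 without LPS and 0.14 with LPS. The bin with the Hbs1l start site stood at 0.32 and 0.12. The medians on the Ahi1 side, 0.84 and 0.81, were above the values at both of these start sites, while the untreated median of the Myb body, 0.59, was below that of the Ahi1 start site.

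**Figure D5:**
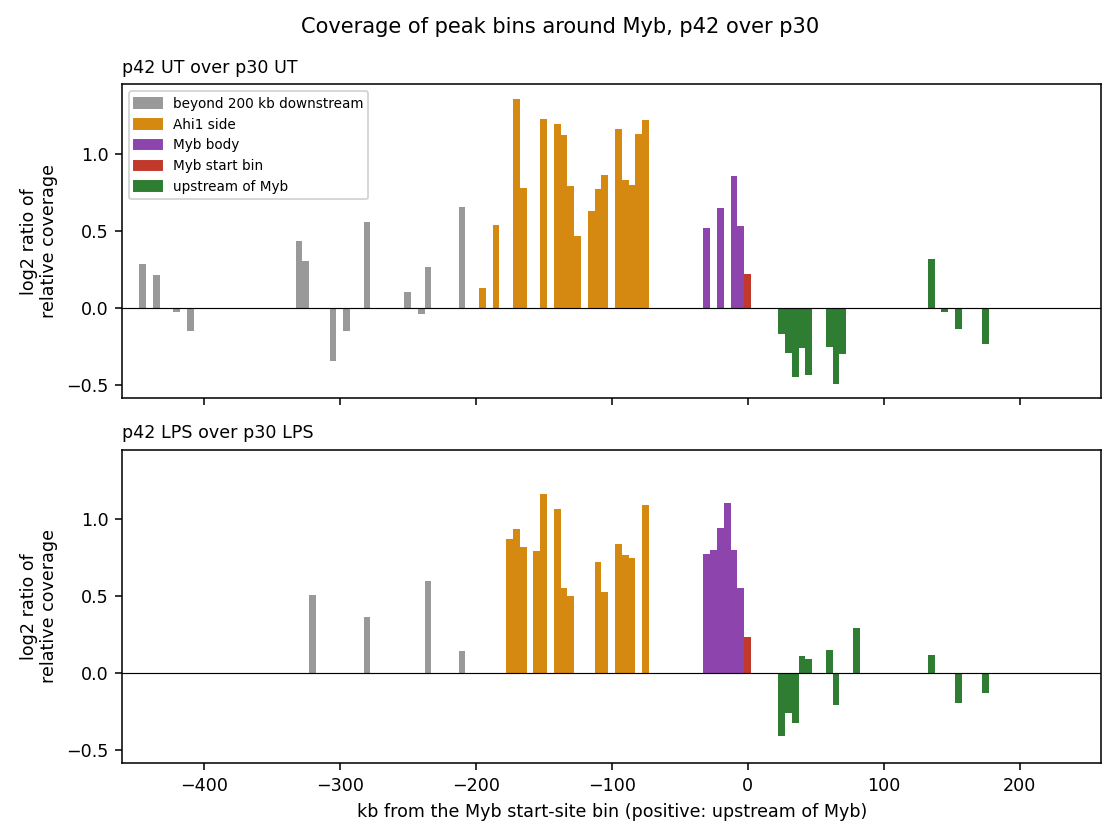
Log2 ratio of the relative coverage of peak-flagged bins, p42 over p30, without LPS (upper panel) and with LPS (lower panel), against the distance from the Myb start-site bin in kb (positive upstream). Each bar is 1 bin listed in both lists; on this scale, bars on the Ahi1 side within 200 kb and in the Myb body are above 0 in both panels, while all 8 bins between Myb and Hbs1l are below 0 without LPS (7 of 8 when scaled by modelled contacts).

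Relative to the expected counts, which the caller derives from distance and coverage, the shared window loops differed less between p42 and p30. Their median log2 difference in observed over expected contacts was -0.01 without LPS and 0.05 with LPS, against 0.16 and -0.09 over all shared loops. On the Ahi1 side it was -0.04 and -0.10. Between Myb and Hbs1l it was 0.07 without LPS, where the contacts alone gave -0.24, and 0.10 with LPS, where they gave 0.04, so the untreated direction of that zone turned as well. The higher number of contacts with p42 on the Ahi1 side thus stood beside a higher coverage of the same bins. Of the 4 loops called between the UT lists, the one from 170 to 105 kb downstream had a log2 difference of 1.78 in contacts and of 1.17 over the expected counts, where it was no longer called (exact binomial test, adjusted p = 0.358). The loop from 105 to 95 kb went from 1.35 to 0.43 (exact test, adjusted p = 0.481) and that from 170 to 135 kb from 1.37 to 0.43, whereas the loop from 90 to 80 kb went from 0.88 to -0.04.

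Both neighbors of Myb were compared with it by the loops of their own start sites. The Hbs1l start site had 2 loops untreated and 1 after LPS with p30, and 6 untreated and 3 after LPS with p42, and 2, 1, 2 and 3 in lists of equal size. Its loop to the bin 10 kb inside Hbs1l had 44 contacts in p30 UT and 38 after LPS, with 54 in p42 UT. Its loop to the bin chr10:21030001-21035000 in Myb was listed with p42 alone, with 12 contacts untreated and 11 after LPS. Up to 8 contacts could have stayed unlisted there in each p30 list, if the pair was tested. The Ahi1 start site had 2, 5, 2 and 3 loops, all of which ran away from Myb to bins 590 to 665 kb farther downstream, and the loop at 640 kb was in all 4 lists with 14, 15, 21 and 9 contacts. No listed loop joined the Ahi1 start site to a bin inside its own gene. Summed start-site contacts of either gene were not called between the UT lists (adjusted p = 0.739 for Hbs1l and 0.576 for Ahi1, exact binomial test).

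Genes around MYB function were set beside it. In the MYB family, Mybl1 had 1, 2, 3 and 2 start-site loops in untreated and treated p30 and untreated and treated p42 cells, and Mybl2, a cell cycle factor, had 0, 1, 0 and 1. Among co-activators, Ep300, an acetyltransferase that MYB recruits, had 14, 17, 20 and 10, and its contacts were called higher in p42 UT than in p30 UT (58.9%, exact test, adjusted p = 1.94e-04) and lower in p42 LPS than in p42 UT (33.5%, adjusted p = 8.12e-07), while Crebbp had 0, 1, 3 and 0. Of the 3 co-activators tested between the UT lists, 1 was called higher and 0 lower, where 22% of all genes were called higher. The median share over all genes was 55.6% between the UT lists and 41.7% for LPS against UT in p42. Other null shares were not applied to the genes of this list and the next lists. Their calls are therefore against the modelled contacts alone and include any offset shared by all genes.

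Next came transcription factors of blood cells that act at enhancers such as those of Myb. Of 12 factors, 11 were tested between the UT lists, of which 5 were called higher and 0 lower in p42 UT, with a median share of 57.6% against 55.6% over all genes, of which 22% were called higher. Erg, with 10, 10, 26 and 19 loops, had the largest share among the called ones (65.4%, exact test, adjusted p = 9.93e-18), followed by Lmo2 (65.1%, adjusted p = 1.30e-14). Runx1 had 7, 11, 23 and 10 loops and Tal1 had 6, 5, 10 and 5, and neither was called (57.6% and 52.5%). After LPS, 2 of 9 factors tested were called higher in p42, Erg and Fli1, against 1.02% of all genes.

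Of 10 targets, 9 were tested between the UT lists and 5 were called higher in p42 UT, with a median share of 58.5%, where 22% of all genes were called higher. A call also depends on the number of contacts, which was not matched. Prtn3 had 14 shared loops with 803 contacts in p42 UT and 513 in p30 UT, and Myb 1 with 26 and 18. Elane and Prtn3, both called, have touching start-site bins. The gene lists were written with earlier results known, so counts of calls among targets and factors are a description. Mpo, the peroxidase of granulocyte precursors, had 6, 8, 12 and 9 loops and a share of 69.8% (exact test, adjusted p = 6.71e-35), and Prtn3, a protease of the same granules, 17, 18, 27 and 15 loops and 61.0% (adjusted p = 1.21e-10). Kit, the receptor of stem cell factor, had 3, 5, 17 and 5 loops and 58.5% and was not called. After LPS, 1 of 7 targets tested, Mpo, was called higher in p42 (59.7%, exact test, adjusted p = 0.00205), against 1.02% of all genes. For LPS against UT in p42, 4 of 10 targets and 5 of 10 factors were called lower and 0 higher, against 16.7% of all genes called lower. In p30, 1 of 7 targets, Mpo, was called lower (38.5%, exact test, adjusted p = 0.0304), against 0.191% of all genes.

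The genes nearest to Myb in the number of start-site loops over the 4 lists of equal size were Zfp963, Zfr and Chmp4b, each with 1, 3, 3 and 1 loops and thus at a distance of 0. In the lists as deposited they had 1, 4, 3 and 1, 1, 3, 7 and 1, and 1, 4, 9 and 1 loops. Their start-site bins had between 1.16 and 4.10 times the mean coverage of peak-flagged bins, above the range of 0.657 to 0.900 of the Myb bin. None of them was called between the UT lists or between the LPS lists where tested.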

How the data were processed

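H3K27ac HiChIP was done in 8 libraries (4 groups, 2 replicates each) of HPC-7 cells. The authors mapped reads to mm39 with BWA-MEM 0.7.17, kept valid ligation events and removed duplicates with pairtools, and called interactions with FitHiChIP in 5 kb bins at a q-value under 0.01. How the replicates were pooled is not given in the sources used here, and 1 list of 26 columns per group was deposited. The deposited values used were counts of contacts per pair and of reads per bin (coverage), the ratio of a bin's coverage to the mean of its class, a fraction (the modelled contact probability), p-values and q-values, the expected contacts, the peak flag and the distance. Further columns of the caller were not used.

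The members and gene lists were chosen with earlier results of these data known. Start sites came from GENCODE on GRCm39, and sequence from the same build, in which 21 of 21 chromosome names were found and 0 loops ran beyond an end. A promoter table on another build was not used. Another list of marker genes is not reported here. The window held loops with both bins within 200 kb of the Myb start-site bin. The genes named were Myb, Hbs1l, Ahi1, members of the gene lists, and the 3 genes whose loop numbers over the 4 lists of equal size were nearest to those of Myb, by Euclidean distance of log2(loops + 1). Relative coverage is coverage over the caller's mean of peak-flagged bins, and it is known only for bins with a listed loop.

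Contacts of pairs that a list does not hold are unknown. The largest number that would stay unlisted was computed from the expected count, which in each list is a log-linear function of both coverage ratios at a given distance. Contacts of loops in both lists were compared with two-sided exact binomial tests against the share of modelled contacts, and the LPS changes with a conditional exact test. P-values were adjusted by the Benjamini-Hochberg method over all shared loops or all protein-coding genes tested, with a threshold of 0.05. With 1 pooled list per group, all tests compare libraries, and the 95% Wilson intervals and the p-values cover counting error only. Alternatives were other q thresholds, equal list size, other start-site bins and windows, other null shares and other coverage scales. Python 3.11.15, NumPy 2.4.6, SciPy 1.17.1, pandas 2.3.3 and Matplotlib 3.10.9 were used.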

Additional observations from a re-analysis of the deposited data

Results flagged for a closer look

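The lists differed in opposite directions after LPS in p30 and in p42 for 5 measures of the Myb locus, and none of these differences was tested, since each group is 1 list. The loops of the Myb start-site bin differed by 3 in p30 and by -6 in p42 (LPS minus UT), and those within 200 kb by 8 and by -74. Contacts of window loops per 1000000 modelled contacts differed by 21.5 and by -98.1. Loops with both bins on the Ahi1 side differed by 2 and by -36, and loops between the Ahi1 side and the Myb body by 3 and by -17. The p30 LPS list is longer than the p30 UT list, with 94609 against 80489 loops, and the p42 LPS list shorter than the p42 UT list, with 78591 against 158233. The part of list length in these differences was not tested. In lists of equal size the window held 37, 34, 68 and 80 loops in untreated and treated p30 and untreated and treated p42 cells, so both directions turned. Loops on the Ahi1 side were then fewer after LPS with either isoform, and loops between the Ahi1 side and the Myb body more with either. Of these loop counts, the start-site bin alone, with 1, 3, 3 and 1 loops, kept opposite directions.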

How the results depend on the processing

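No paired analysis was possible because there is 1 list per group with no values per replicate, and for the same reason no replicate could be left out. Values below are in the order untreated p30, treated p30, untreated p42 and treated p42, and 152 alternative values kept their direction and call or, where no test was made, moved by at most 1.5 times (counts) or their counting error. A further 82 moved beyond these limits, and 6 were classed as reversed in direction. At q under 0.001, the Myb start-site bin kept 0, 2, 3 and 0 loops and the window 19, 22, 96 and 50. At q under 1e-05 these were 0, 1, 2 and 0, and 6, 8, 54 and 21. With 1 bin added on either side of the start-site bin there were 5, 10, 29 and 11 loops, with the bins of all Myb transcript starts 6, 15, 43 and 23, with touching partners merged 2 in p30 LPS, and in a window of 100 kb 17, 22, 43 and 25. In lists of equal size p42 UT had 3 start-site and 68 window loops. The Hbs1l start site had 1 loop in p30 UT and 2 in p42 UT at q under 0.001, 0, 0, 1 and 0 at q under 1e-05, and 2 in p42 UT at equal size. The Ahi1 start site had 2 (q under 0.001) and 1 (q under 1e-05) in p30 LPS, and 1 in p42 UT both at q under 1e-05 and at equal size. By alternatives chosen after seeing the data, at q under 1e-05 the Ahi1 side had 2, 2, 33 and 10 loops, Ahi1 side to Myb body 0, 1, 8 and 2, and Myb to Hbs1l 3, 3, 2 and 5, and at equal size p42 UT had 42, 9 and 4. Window loops called higher in p42 UT than in p30 UT were 0 with the null share of the expected counts and 1 with that of all shared loops. For p42 LPS over p30 LPS, 1 was called higher with the share of all shared loops and 1 over loops in all 4 lists, where 1 was also called lower in p42 LPS than in p42 UT. With 1 bin on either side, the log2 ratio of summed Myb contacts turned to 0.28 for p42 LPS over p30 LPS (adjusted p = 0.429, exact binomial test) and to 0.065 for p42 LPS over p42 UT (adjusted p = 0.866). With the null share of all shared loops, the log2 ratio of summed Myb contacts moved from 0.45 to 0.17 for p42 UT over p30 UT, from -0.43 to -0.25 for p42 LPS over p30 LPS, from 0.53 to 0.27 for p30 LPS over p30 UT and from -0.35 to -0.14 for p42 LPS over p42 UT, and the LPS change in p42 against p30 from -0.88 to -0.32, with none called. The cause was not tested.

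The median log2 coverage differences moved with the scale. With the mean of all bins, p42 UT over p30 UT gave 0.92 on the Ahi1 side, 0.67 in the Myb body and -0.21 between Myb and Hbs1l, and p42 LPS over p42 UT gave -0.29, 0.000865 and 0.21, with -0.34 at the Myb start. With modelled contacts, in the order Ahi1 side, Myb body, Myb start and between Myb and Hbs1l, p42 UT over p30 UT gave 1.03, 0.79, 0.41 and -0.10, and p42 LPS over p30 LPS gave 0.47, 0.47, -0.10 and -0.39. In the same order p30 LPS over p30 UT gave 0.15, 0.083, -0.029 and 0.16, and p42 LPS over p42 UT gave -0.49, -0.21, -0.54 and -0.0013. Of these, the Myb start for p42 LPS over p30 LPS changed direction, and so did the Myb body in both comparisons of LPS with UT, the Ahi1 side and the bins between Myb and Hbs1l for p30 LPS over p30 UT (from -0.05 each), and the last value. The bin joined to Myb in all 4 lists held 2 ETS matches. At distances over 100 kb, 7 to 9 contacts decided a listing, which limits what a missing loop shows.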
